A study of Mus musculus with 18 samples.

Results

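The lysosomal cathepsins and the Lamp proteins were followed through the maturation of a mouse red cell precursor line. The genes were taken by name: every probe set whose platform symbol is Ctsb, Ctsd, Ctsl, Ctsh, Ctss, Ctse, Ctsc, Ctsz, Lamp1 or Lamp2. All 10 genes were on the array, with 18 probe sets among the 12422 tested and 10 of the 8251 genes that the probe sets with a single symbol stand for. A probe set is a group of short DNA probes that reads 1 transcript.

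The cells were G1E-ER4, a subclone of the G1E line of erythroid cells, which came from embryonic stem cells with a disrupted Gata-1 gene. The subclone carries Gata-1-ER, a Gata-1 protein joined to the part of the estrogen receptor that binds estradiol, so that the hormone turns Gata-1 activity on. The 18 samples were cells before estradiol (0 h) and after 3, 7, 14, 21 and 30 h in it, with 3 biological replicates (A, B and C) at each time and 1 Affymetrix MG-U74Av2 array a sample. Per the labels, the course runs from the late BFU-E stage, an early committed red cell progenitor, to the orthochromatic erythroblast, the last stage with a nucleus. All groups, the 0 h cells included, lack Gata-1 of their own and carry the fusion, and all come from a single subclone. Cells given estradiol but lacking the fusion, and cells cultured as long with no hormone, were not analysed here, so Gata-1-ER, estradiol itself and time in culture cannot be told apart.

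Lysosomes are acidic organelles that break down protein, lipid and sugar chains delivered by endocytosis and autophagy. Cathepsins are their main proteases. They are made as inactive precursors and become active at low pH: cathepsins B, C, H, L, S and Z use a cysteine in the active site, and cathepsins D and E use a pair of aspartates. Lamp1 and Lamp2 are heavily glycosylated proteins that line the inner side of the lysosomal membrane. Maturing red cells remove their mitochondria, ribosomes and other organelles, in part through autophagy, which ends in the lysosome.

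After 30 h of estradiol, Ctsb, Ctsd, Ctsz, Lamp1, Lamp2 and Ctsl were higher than at 0 h, and Ctse was lower. By the brightest probe set of each gene the largest rise was that of Ctsb, whose mean signal was 13.6 times the mean at 0 h, and the signal of Ctse was 0.16 times its mean at 0 h. Ctsh, Ctss and Ctsc did not pass the test at any time, by the probe sets that stand for them, and were dim on every array. Thus 7 of 10 genes were called, 6 higher and 1 lower, where 31.2% of all genes were called in that comparison, 14.7% higher and 16.5% lower. The median log2 change was 1.26 over the 10 genes and 0.05 over all genes. Called means an adjusted p below 0.05 in limma's moderated test, with the Benjamini-Hochberg adjustment taken over all 12422 probe sets. Changes are on a log2 scale after a constant of 16 had been added to the signal, which understates changes of dim genes, and their errors are standard errors (SE) of the model. Signals are on the deposited linear scale, and each mean is over n = 3 arrays. RNA came from whole cultures, so a change in the share of cells that express a gene and a change in RNA per cell cannot be told apart.

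**Figure D1:**
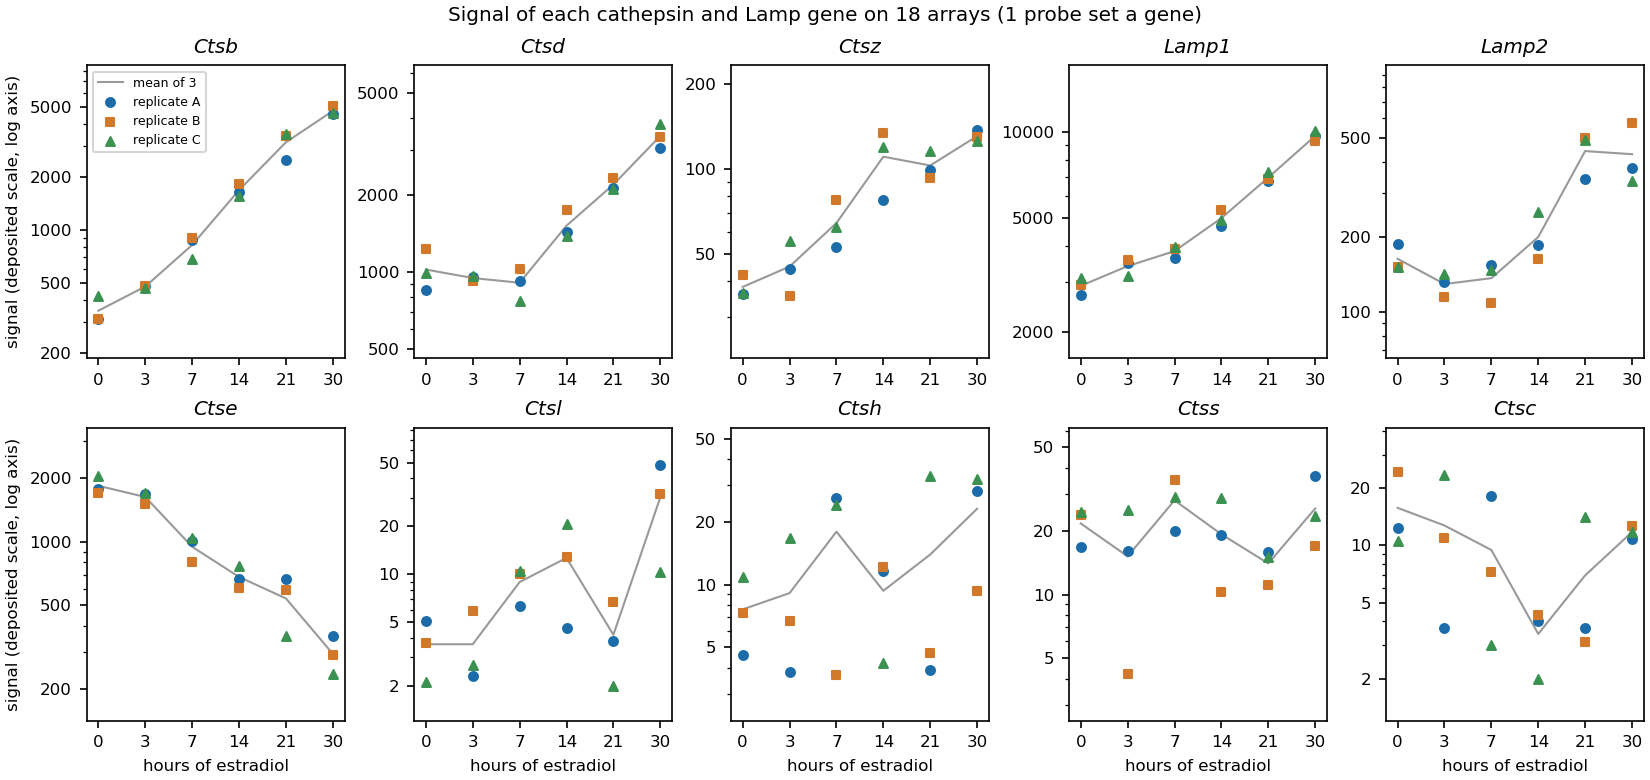
Signal of each of the 10 genes (log axes) on the 18 arrays against hours of estradiol. Symbols are the replicates A, B and C, and the grey line is the mean of 3 arrays. Ctsb, Ctsd, Ctsz, Lamp1 and Lamp2 end above their 0 h arrays, Ctse ends below them, and the signals of Ctsl, Ctsh, Ctss and Ctsc reach no higher than 48.9.

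Lamp1 (160089_at), on GRCm38.p6 at chr8:13159161-13175338, codes for one of the most abundant proteins of the lysosomal membrane. Its signals read 2703, 2914 and 3099 on the 0 h arrays, 3492, 3591 and 3134 on the 3 h arrays, and 3649, 3908 and 3976 on the 7 h arrays. The 14 h arrays read 4722, 5365 and 4956, the 21 h arrays 6754, 6859 and 7249, and the 30 h arrays 9735, 9331 and 10103. In these signals the arrays of each time lay above all arrays of the earlier times, with narrow gaps up to 7 h and wider ones after it. In the normalized log2 values that were tested, 3 h replicate C (11.66) lay below 0 h replicate C (11.79). There 7 h replicate B (11.86) also lay below 3 h replicates A (11.88) and B (11.92). Lamp1 averaged 9723 ± 386 at 30 h and 2905 ± 198 at 0 h (SD, n = 3 each), a log2 change of 1.63 (SE 0.11, limma adjusted p = 1.83e-09). The difference from 0 h did not pass the test at 3 h (0.21, adjusted p = 0.717) or at 7 h (0.35, adjusted p = 0.112), and it passed at 14 h (0.72, adjusted p = 0.000181) and at 21 h (1.08, adjusted p = 7.16e-07). Of the log2 change reached at 30 h, 21.4% was present at 7 h, 44.4% at 14 h and 66.6% at 21 h.

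Lamp2 (101590_at), on chrX:38399647-38456460, codes for the second major lysosomal membrane glycoprotein, 1 splice form of which takes up single proteins in chaperone-mediated autophagy. Its signals read 187, 151 and 152 on the 0 h arrays, 131, 114 and 142 on the 3 h arrays, and 154, 108 and 147 on the 7 h arrays. The 14 h arrays read 185, 162 and 252, the 21 h arrays 341, 499 and 489, and the 30 h arrays 378, 577 and 335. The arrays of the first 4 times overlapped, all 21 h and 30 h arrays lay above them, and the 21 h and 30 h arrays overlapped each other. Lamp2 averaged 430 ± 129 at 30 h and 163 ± 20.4 at 0 h (SD, n = 3 each), a log2 change of 1.38 (SE 0.20, limma adjusted p = 2.12e-05). It was not called at 14 h (0.29, adjusted p = 0.439) and was called at 21 h (1.39, adjusted p = 2.94e-05). The step from 14 h to 21 h was itself called, with 443 ± 88.7 at 21 h and 200 ± 46.8 at 14 h (log2 change 1.10, adjusted p = 0.00533), and 30 h did not differ from 21 h beyond the spread (-0.02, adjusted p = 0.983). A second probe set for Lamp2, 100136_at, was also called at 30 h, with signals of 61.5, 46.8 and 58.8 at 30 h and 25.1, 30.8 and 31.7 at 0 h (0.70, SE 0.24, adjusted p = 0.0391).

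Promoter sequences are shown for Lamp1, Ctsd and Ctsz, the 3 genes with at least 2 matches to a motif that bears on red cell or lysosomal genes. Gata factors such as Gata-1 bind the core GATA in AGATAA or TGATAA. Tfeb and its relatives, which activate many lysosomal genes, bind the E-box CACGTG. Both motifs were searched on both strands in the 250 bases before the start that the RefSeq promoter table gives, on GRCm38.p6. For Ctsl that start lies within the gene's span, so that all 250 bases do too, and for Ctsc 61 of them do. The table held 7 of the 10 genes and no entry for Ctsb, Ctsh or Ctse. Bases are written 5′ to 3′ on the strand of the gene, with motif matches in capitals.
Lamp1 (chr8:13158911-13159160, plus strand): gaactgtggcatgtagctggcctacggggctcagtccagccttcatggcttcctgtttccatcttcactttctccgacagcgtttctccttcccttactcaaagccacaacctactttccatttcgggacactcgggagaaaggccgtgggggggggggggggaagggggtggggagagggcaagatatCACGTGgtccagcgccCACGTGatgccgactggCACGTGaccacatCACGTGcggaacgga
Ctsd (chr7:142387828-142388077, minus strand): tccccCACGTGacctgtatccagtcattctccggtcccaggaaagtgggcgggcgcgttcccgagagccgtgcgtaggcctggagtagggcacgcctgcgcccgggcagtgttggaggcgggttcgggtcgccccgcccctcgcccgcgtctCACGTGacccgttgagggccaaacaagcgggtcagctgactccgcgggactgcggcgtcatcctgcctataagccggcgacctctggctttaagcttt
Ctsz (chr2:174439040-174439289, minus strand): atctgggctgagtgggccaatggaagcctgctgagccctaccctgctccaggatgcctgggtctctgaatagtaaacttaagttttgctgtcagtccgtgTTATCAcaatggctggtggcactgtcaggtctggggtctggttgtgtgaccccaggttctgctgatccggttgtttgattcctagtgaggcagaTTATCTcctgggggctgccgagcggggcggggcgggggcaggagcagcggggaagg
The Lamp1 window held 4 E-boxes, all within 61 bases of the start, and 0 Gata motifs. At least 4 E-boxes stood in 7 of 32851 promoters of the same length (0.0213%). The Ctsd window held 2 E-boxes, where 0.429% of promoters held at least 2, and the Ctsl window held 1, where 6.02% held at least 1. The E-box reads the same on both strands and was counted once, and no match overlapped another. The Ctsz window held 2 Gata motifs, both on the opposite strand and therefore read as TTATCA and TTATCT above, where 2.72% of promoters held at least 2 and 16.6% at least 1. In the windows of Lamp2, Ctss and Ctsc neither motif occurred. These are matches of letters only, and binding was not measured on these arrays.

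Ctsd (93810_at), on chr7:142375910-142387827, codes for cathepsin D, the main aspartic protease of lysosomes. Its signals read 849, 1229.7 and 986 on the 0 h arrays, 956, 919 and 965 on the 3 h arrays, and 925, 1029 and 766 on the 7 h arrays. The 14 h arrays read 1429, 1742 and 1376, the 21 h arrays 2136, 2334 and 2114, and the 30 h arrays 3053, 3365 and 3778. The first 3 times overlapped, and from 14 h on the arrays of each time lay above all arrays of the earlier times. Ctsd averaged 3399 ± 364 at 30 h and 1022 ± 193 at 0 h (SD, n = 3 each), a log2 change of 1.60 (SE 0.15, limma adjusted p = 5.77e-08). The log2 changes at 3 h and 7 h were -0.11 and -0.19 (adjusted p = 0.966 and 0.682). Ctsd was called at 14 h (0.54, adjusted p = 0.0162) and 21 h (0.99, adjusted p = 3.81e-05). The call at 14 h was lost without 0 h replicate A (0.42, adjusted p = 0.1003), 0 h replicate C (0.52, adjusted p = 0.0583) or 14 h replicate B (0.46, adjusted p = 0.0767). It was also lost with arrays scaled to a common median (0.54, adjusted p = 0.0825) and with the compared times alone (0.52, adjusted p = 0.0723).

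Ctse was the member that fell. It lies on chr1:131638314-131675507 and codes for cathepsin E, an aspartic protease of endosomes and the endoplasmic reticulum that in humans is also found on the red cell membrane. Its brightest probe set, 104696_at, read 1791, 1699.7 and 2046 on the 0 h arrays, 1687, 1507 and 1707 on the 3 h arrays, and 1005, 801 and 1038 on the 7 h arrays. The 14 h arrays read 669.5, 606 and 769.6, the 21 h arrays 666, 593 and 359, and the 30 h arrays 357, 290.2 and 236. The 7 h arrays lay below all earlier ones, and every 30 h array lay below every 21 h array, the closest pair at 356.9 and 358.7. In the normalized log2 values that were tested, 30 h replicate A (8.62) lay above 21 h replicate C (8.58). Ctse averaged 294 ± 60.6 at 30 h and 1845 ± 179 at 0 h (SD, n = 3 each), a log2 change of -2.63 (SE 0.19, limma adjusted p = 2.45e-09). The log2 change was -0.19 at 3 h (adjusted p = 0.924), -1.0002 at 7 h (adjusted p = 0.00309), -1.49 at 14 h (adjusted p = 1.48e-05) and -1.87 at 21 h (adjusted p = 4.06e-07).

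The other probe sets of Ctse did not show this fall. The platform builds both on a shared sequence record, which is not that of 104696_at, so their gene is uncertain. Probe set 93861_f_at is also of a kind (_f_at) whose probes may read related transcripts. Probe set 93860_i_at read 31.8, 5.4 and 37 at 30 h against 31.4, 47.1 and 9.9 at 0 h, and was not called (-0.19, SE 0.47, limma adjusted p = 0.843). Probe set 93861_f_at read 78.1, 68.7 and 135 at 30 h against 67.1, 54.8 and 61.7 at 0 h, and was not called either (0.55, SE 0.27, adjusted p = 0.165). With the mean of the 3 probe sets as 1 value, the log2 change of Ctse was -0.76 at 30 h (adjusted p = 0.00384) and 0.04 at 7 h (adjusted p = 0.971). Which transcript each probe set reads was not tested.

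**Figure D2:**
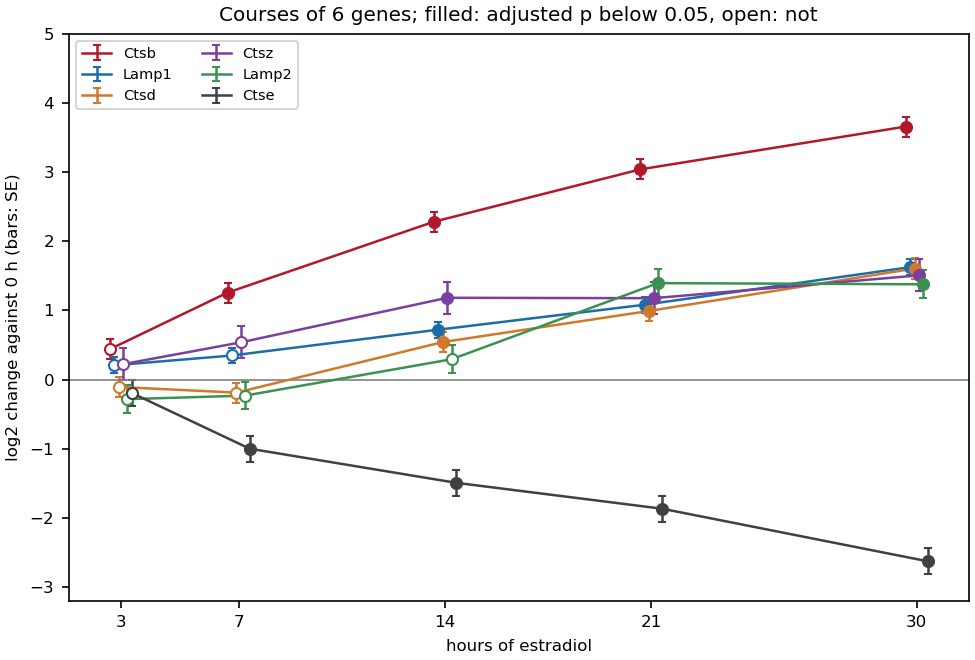
Log2 change against 0 h (vertical axis, bars are SE) at each hour of estradiol for 6 genes, with filled points where the adjusted p was below 0.05. Ctsb is called from 7 h and reaches 3.66, Lamp1, Ctsd and Ctsz are called from 14 h, Lamp2 from 21 h, and Ctse falls from 7 h to -2.63.

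Ctsb (94831_at), on chr14:63122462-63145923, codes for cathepsin B, a cysteine protease that can act both within a protein chain and from its end. Its signals read 312, 311 and 419 on the 0 h arrays, 479.9, 481 and 467 on the 3 h arrays, and 873, 901 and 687 on the 7 h arrays. The 14 h arrays read 1648, 1826 and 1566, the 21 h arrays 2499, 3423 and 3508, and the 30 h arrays 4550.1, 5061 and 4589. At each time all 3 arrays lay above all arrays of every earlier time. Ctsb averaged 4733 ± 285 at 30 h and 347 ± 62.0 at 0 h (SD, n = 3 each), a log2 change of 3.66 (SE 0.14, limma adjusted p = 8.01e-13). The 3 h change of 0.44 missed the threshold (adjusted p = 0.239). Those of 1.26 at 7 h (adjusted p = 1.47e-05), 2.28 at 14 h (adjusted p = 2.67e-09) and 3.04 at 21 h (adjusted p = 2.03e-11) passed it. Of the log2 change at 30 h, 34.4% was present at 7 h, 62.4% at 14 h and 83.1% at 21 h.

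The gene Ctsb had 3 further probe sets, all far dimmer. Probe set 95608_at was called too, with signals of 80.6, 85.6 and 118 at 30 h against 5.3, 16.3 and 10.5 at 0 h (2.11, SE 0.43, limma adjusted p = 0.000833). Probe sets 92256_at and 162271_f_at lay below the array median on 18 of 18 arrays and were not called, with log2 changes of 0.86 (adjusted p = 0.0662) and -0.33 (adjusted p = 0.559). The mean over the 4 probe sets gave a smaller log2 change of 1.57 at 30 h (adjusted p = 2.99e-05), where Lamp1 (1.63) and Ctsd (1.60), with 1 probe set each, were larger.

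**Figure D3:**
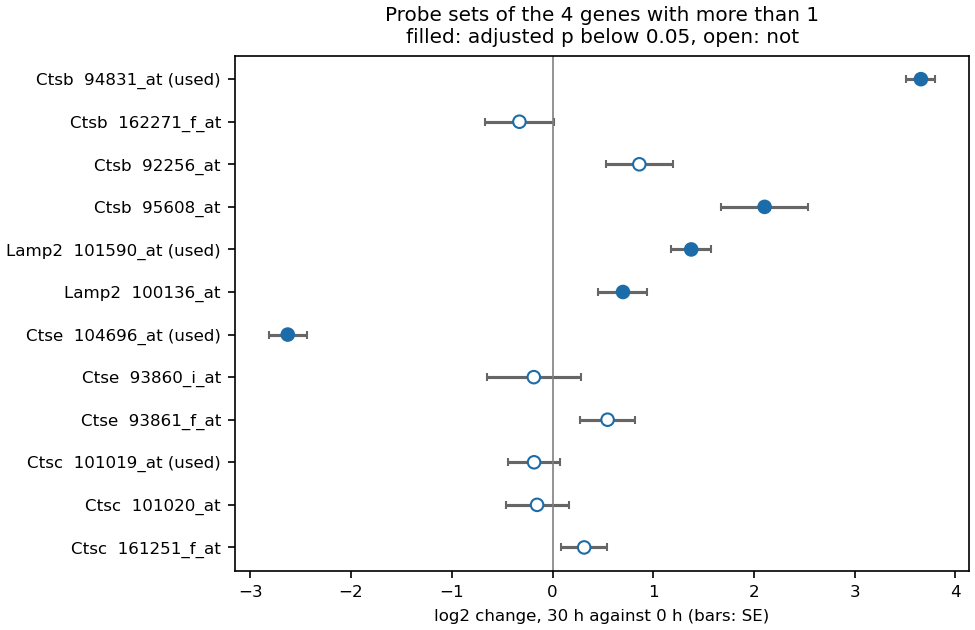
Log2 change at 30 h against 0 h (horizontal axis, bars are SE) for every probe set of the 4 genes that have more than 1, with filled points where the adjusted p was below 0.05. The probe set used for Ctsb gives 3.66 and its other probe sets -0.33 to 2.11, both Lamp2 probe sets are called higher, 1 of 3 Ctse probe sets is called lower, and none of Ctsc is called.

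Ctsz (92633_at), on chr2:174427494-174439039, codes for cathepsin Z, also called cathepsin X, a cysteine protease that trims single residues from the end of a chain. Its signals read 36.1, 42.2 and 36.3 on the 0 h arrays, 44.2, 35.6 and 55.5 on the 3 h arrays, and 52.7, 77.7 and 62.5 on the 7 h arrays. The 14 h arrays read 77.6, 134 and 119.8, the 21 h arrays 99.3, 93.1 and 116, and the 30 h arrays 137, 129 and 126. All arrays from 7 h on were above all 0 h arrays, and the 14 h arrays overlapped those of 7 h, 21 h and 30 h. Ctsz averaged 131 ± 5.69 at 30 h and 38.2 ± 3.47 at 0 h (SD, n = 3 each), a log2 change of 1.51 (SE 0.23, limma adjusted p = 4.34e-05). It was called at 14 h (1.18, adjusted p = 0.00150) and 21 h (1.18, adjusted p = 0.000846) and not at 7 h (0.54, adjusted p = 0.293).

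Ctsl (101963_at), on chr13:64361890-64370772, codes for cathepsin L, a cysteine protease that cuts within protein chains. It lay below the array median on 17 of 18 arrays. Its signals were 48.9, 32 and 10.3 at 30 h, against 5.1, 3.7 and 2.1 at 0 h, and at the times between they ran from 2 to 20.6. It was called at 30 h alone (log2 change 1.14, SE 0.28, limma adjusted p = 0.00371), with 1 array at 30 h inside the range of the 14 h arrays. Over all times its F test gave an adjusted p of 0.0203, which was 0.118 without 30 h replicate A and 0.108 without 30 h replicate B.

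Ctsh, Ctss and Ctsc lay below the array median on 18 of 18 arrays. Ctsh, on chr9:90054267-90076095, codes for cathepsin H, which mainly removes residues from the start of a chain. Its signals ran from 3.7 to 33.2 with a median of 10.1, and its log2 change at 30 h was 0.64 (SE 0.35, limma adjusted p = 0.209). Ctss, on chr3:95526786-95556405, codes for cathepsin S, which processes the invariant chain in antigen presenting cells. It ran from 4.2 to 36.4 with a median of 19.6 (0.12 at 30 h, SE 0.28, adjusted p = 0.835). Ctsc, on chr7:88278024-88315861, codes for cathepsin C, which activates the serine proteases of mast cells and neutrophils by cutting pairs of residues from their start. Probe set 101019_at ran from 2 to 24.4 with a median of 10.7 (-0.18 at 30 h, SE 0.26, adjusted p = 0.693). A second Ctsc probe set, 161251_f_at, was called at 14 h alone, at a mean of 20.8 against 3.57 at 0 h (0.86, SE 0.23, adjusted p = 0.0158), and 101020_at was called at no time.

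The count of genes called grew with time. At 3 h limma called 0 of the 10 (1 at an unadjusted p below 0.05), where 1.41% of all genes were called, 1.02% higher and 0.388% lower. At 7 h it called 2, with Ctsb higher and Ctse lower, where 5.32% of all genes were called, 3.21% higher and 2.11% lower. At 14 h it called 5, with Ctsd, Ctsz and Lamp1 added, 4 higher and 1 lower, against 16.2% of all genes, 8% higher and 8.17% lower. At 21 h it called 6, with Lamp2 added, 5 higher and 1 lower, against 24.6%, 11.4% higher and 13.1% lower. In the F test over all times 7 of 10 were called, against 32% of all genes. These comparisons share the 0 h arrays. Over the 10 genes the median log2 change was -0.04, 0.28, 0.39, 0.61 and 1.26 at 3, 7, 14, 21 and 30 h. The median over all genes stayed between -0.01 and 0.05, and the scaling and normalization of the arrays tend to hold it near 0.

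Between neighbouring times, Ctsb was called at every step from 3 h on, and the last step held the most calls. From 3 h to 7 h, Ctsb (0.82, limma adjusted p = 0.00709) and Ctse (-0.81, adjusted p = 0.0429) were called, 1 each way, where 1.3% of all genes were, 0.945% higher and 0.351% lower. The Ctse call was lost without any 1 of 13 arrays, among them all 0 h, 3 h and 7 h arrays (adjusted p 0.0507 to 0.236). From 7 h to 14 h, Ctsb (1.03, adjusted p = 0.000476) and Ctsd (0.73, adjusted p = 0.00962) were called, both higher, against 2.87% of all genes, 1.53% higher and 1.35% lower. Ctsd was not called without 7 h replicate C (0.62, adjusted p = 0.0607). From 14 h to 21 h, Ctsb (0.76, adjusted p = 0.00735) and Lamp2 were called, both higher, against 2.82% of all genes, 1.16% higher and 1.66% lower. Ctsb was not called without 14 h replicate C (0.69, adjusted p = 0.0502).

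From 21 h to 30 h, 5 of 10 were called, 4 higher and 1 lower, against 6.14% of all genes, 2.24% higher and 3.9% lower. Lamp1 was higher at 30 h than at 21 h (0.54, limma adjusted p = 0.00727), as were Ctsb (0.62, adjusted p = 0.0148), Ctsd (0.61, adjusted p = 0.0175) and Ctsl (1.10, adjusted p = 0.0255), and Ctse was lower (-0.76, adjusted p = 0.0227). The Lamp1 call held without each array in turn and was lost with arrays scaled to a common median (0.45, adjusted p = 0.219) and with the compared times alone (0.49, adjusted p = 0.0840). Ctsb lost its call without 21 h replicate A (0.49, adjusted p = 0.0770) or 30 h replicate B (0.53, adjusted p = 0.0772). Ctsd lost it without 21 h replicate C (0.57, adjusted p = 0.0682) or 30 h replicate C (0.51, adjusted p = 0.0961). Ctse lost it without 21 h replicate A (adjusted p = 0.109), 21 h replicate B (adjusted p = 0.0937), 30 h replicate B (adjusted p = 0.0611) or 30 h replicate C (adjusted p = 0.124). Ctsl lost it without 21 h replicate A (adjusted p = 0.0734), 21 h replicate C (adjusted p = 0.0966), 30 h replicate A (adjusted p = 0.130) or 30 h replicate B (adjusted p = 0.0992).

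The order of the mean levels differed between the genes. Ctsb and Lamp1 followed the order of the times, 0, 3, 7, 14, 21 and 30 h, and Ctse followed the reverse order. For Ctsb all neighbours in this order but 0 h and 3 h differed, for Lamp1 only 21 h and 30 h did, and for Ctse 3 h and 7 h did and 21 h and 30 h did. Ctsd was lowest at 7 h, followed by 3, 0, 14, 21 and 30 h. Of its neighbours 0 h and 14 h differed, as did 21 h and 30 h, and the other neighbours did not differ beyond their spread. Lamp2 was lowest at 3 h, followed by 7, 0, 14, 30 and 21 h, and only 14 h and 30 h differed among those neighbours (1.08, limma adjusted p = 0.000733). For Ctsz the order was 0, 3, 7, 21, 14 and 30 h, and for Ctsl 0, 3, 21, 7, 14 and 30 h, with no neighbours that differed.

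Across the 18 arrays, Ctsb correlated with Lamp1 at Pearson r = 0.966, with Ctsz at 0.919 and with Ctsd at 0.897, and Ctse correlated with Ctsb at -0.970 and with Lamp1 at -0.949. Lamp1 and Lamp2 gave 0.859. These describe normalized log2 values that share the arrays and the course in time. The genes most like Ctsb were Alas2 (r = 0.991), the enzyme that starts heme synthesis in red cells, Lmna (0.989), which codes for nuclear lamins A and C, and Grina (0.987), a membrane protein gene. Those most like Lamp1 were Ubap1 (0.978), Zfand6 (0.976) and Akr1a1 (0.976). Those most like Lamp2 were Slc4a1 (0.947), the anion exchanger band 3 of the red cell membrane, Flcn (0.934) and Irgm2 (0.933). Those most like Ctsd were Sprr1b (0.971), Renbp (0.970) and Cln3 (0.967), a lysosomal membrane protein gene. For Ctsz they were Slc38a5 (0.933), Car2 (0.930), which codes for carbonic anhydrase of red cells, and Ube2l6 (0.929). For Ctsl they were Smtn (0.842), Hpd (0.822) and Taldo1 (0.803). The genes most like Ctse were Nsun2 (0.972), Actg1 (0.966) and Eif1a (0.966).

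Other genes tied to the lysosome were read from 7 lists, 86 of whose 128 genes were measured. The lists take in cathepsin inhibitors, sorting genes and regulators, and all their genes are termed other lysosomal genes below. At 30 h, 47 of the 86 were higher than at 0 h, 1 was lower and 38 did not pass the test, where 14.7% of all genes were higher and 16.5% lower, and the median log2 change was 0.65 against 0.05 over all genes. At 14 h the counts were 27 higher and 2 lower, Gusb and Ap1m1, where 8% of all genes were higher and 8.17% lower. At 7 h they were 7 higher and 1 lower, Gusb, where 3.21% were higher and 2.11% lower. Of the 48 called at 30 h, 14 have several probe sets, and in 12 of these at least 1 probe set did not share the call, Clcn7, Cln3, Atp6ap1 and Mtor among them. Among the 38 that did not pass, Hexa has a second probe set that was called.

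**Figure D4:**
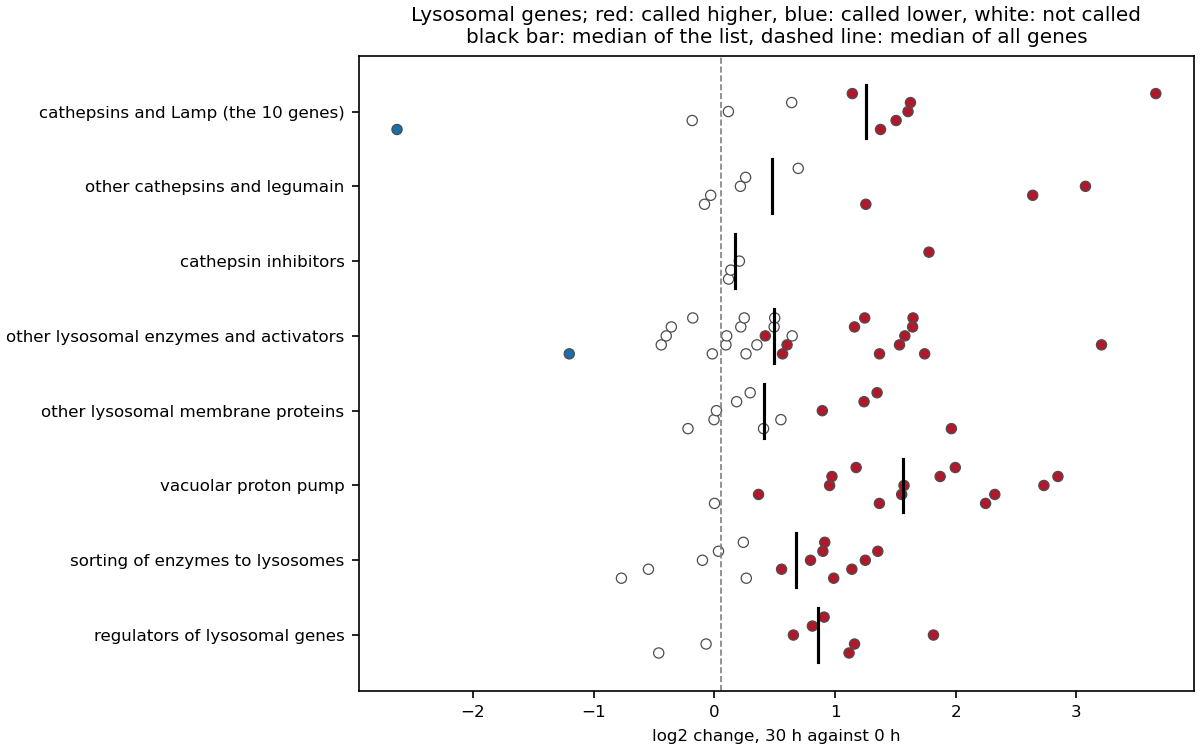
Log2 change at 30 h against 0 h (horizontal axis) of each measured gene of the 10 genes and of 7 further lists. Red points are called higher, blue called lower and white not called, black bars are list medians, and the dashed line is the median of all genes, 0.05. The list of the vacuolar proton pump has 13 of 14 genes called higher, and Ctse and Gusb are the 2 genes called lower.

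Of 8 other cathepsins and legumain measured, 3 rose and 5 did not pass the test. Ctsa, which codes for the protective protein that shields lysosomal galactosidase and sialidase, had signals of 749.7, 852 and 702 at 30 h, against 97.6, 82.6 and 58 at 0 h (log2 change 3.07, limma adjusted p = 1.56e-10). Ctsf, a further cysteine cathepsin gene, had 282, 178 and 84.1 at 30 h, against 6.4, 13.7 and 23.2 at 0 h (2.64, adjusted p = 2.37e-05). Lgmn, the asparagine-specific protease that matures several cathepsins, averaged 80.5 at 30 h and 25.8 at 0 h (1.26, adjusted p = 0.000798). Of 4 inhibitors of cysteine cathepsins, Cstb, the cystatin of the cell interior, rose, with a mean of 3322 ± 273 at 30 h and 872 ± 76.8 at 0 h (SD, n = 3 each; log2 change 1.78, SE 0.11, adjusted p = 2.27e-10). Its signals were 3554, 3022 and 3389 at 30 h, all above those of every earlier time. The secreted cystatin C gene Cst3 (0.21, adjusted p = 0.495), Cst7 (0.14, adjusted p = 0.753) and Cst9 (0.12, adjusted p = 0.888) were not called.

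Of 27 other lysosomal enzymes and activators, 12 rose, 1 fell and 14 did not pass. Npc2, which carries cholesterol out of the lysosome, averaged 7674 at 30 h and 773 at 0 h (log2 change 3.21, limma adjusted p = 8.16e-12). Tpp1, a protease that removes groups of residues from the start of a chain, averaged 2359 at 30 h and 637 at 0 h (1.74, adjusted p = 7.02e-09). The sialidase Neu1 averaged 92.8 at 30 h and 19.8 at 0 h (1.65, adjusted p = 6.00e-05). Gusb, lysosomal beta-glucuronidase, fell to 71.5 at 30 h against 197 at 0 h (-1.20, adjusted p = 1.82e-05). Of 11 other membrane proteins, 4 rose and 7 did not pass. The largest changes were those of the chloride transporter Clcn7 (1.96), Cln3 (1.35) and Scarb2 (1.24), a receptor that carries glucocerebrosidase to the lysosome.

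The vacuolar proton pump acidifies the organelle, and 13 of its 14 measured genes rose, with a median log2 change of 1.56. Atp6v0d1, a subunit of its membrane part, had signals of 2621, 2880 and 2292 at 30 h, against 294, 367 and 317 at 0 h (2.85, limma adjusted p = 1.50e-12). Atp6ap1, an accessory subunit, averaged 1162 at 30 h and 159 at 0 h (2.73, adjusted p = 9.87e-12). Atp6v1d, of the part that splits ATP, averaged 1091 at 30 h and 202 at 0 h (2.32, adjusted p = 5.17e-10). Atp6v0a2 was not called (0.00, adjusted p = 0.995). Of 14 genes that sort enzymes to lysosomes, 8 rose and 6 did not pass. The 8 included a mannose 6-phosphate receptor gene, Igf2r, which averaged 419 at 30 h and 169 at 0 h (1.35, adjusted p = 8.53e-06). The adaptor genes Gga2 (1.25) and Ap3d1 (1.14) were the next largest. Among the 6 that did not pass were M6pr, the other receptor gene of that kind (-0.55, adjusted p = 0.0694), and Gnptab (-0.77, adjusted p = 0.212).

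Of 8 measured regulators of lysosomal genes, 6 rose and 2 did not pass. Rragc and Rraga, small GTPases that bring the kinase mTOR to the lysosome, rose, Rragc to 2069 at 30 h against 534 at 0 h (log2 change 1.82, limma adjusted p = 1.02e-09) and Rraga to 1459 against 612 (1.12, adjusted p = 1.72e-05). The transcription factor Foxo3 rose (1.16, adjusted p = 0.000220), as did Zkscan3, a repressor of autophagy genes (0.91, adjusted p = 0.000425), Spi1, a myeloid and early progenitor factor (0.81, adjusted p = 0.00939), and Mtor (0.66, adjusted p = 0.0134), whose arrays at the 2 times overlapped. Tfeb was dim, with a mean of 9.43 at 30 h and 19.6 at 0 h, and was not called (-0.46, adjusted p = 0.128). Mitf, a relative of Tfeb, was not called either (-0.07, adjusted p = 0.921).

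The labelled cell type was checked with erythroid markers, and other blood cells rich in cathepsins with lists of their own. Beside the counts that follow, 14.7% of all genes were called higher at 30 h and 16.5% lower. Of 9 erythroid markers 6 were higher at 30 h and 1, Rhag, was lower. Their summed signal was 56803 to 67354 at 30 h and 11720 to 13724 at 0 h. Of 11 macrophage markers limma called 0 (1 at an unadjusted p below 0.05), with sums of 408 to 487 at 30 h and 305 to 395 at 0 h, and none was listed at 0. The highest signal of a macrophage marker on any of the 18 arrays ran from 8.6 for Lyz2, the macrophage lysozyme gene, to 183.8 for Cd14. Cd14 averaged 147 at 30 h and 112 at 0 h, with all 30 h arrays above all 0 h arrays, and was not called (0.44, limma adjusted p = 0.0662). Csf1r reached 136.5, Mpeg1 78.3 and Cd68 70.1, and these were not called either. Of 10 neutrophil markers 2 were higher, Camp (1.49, adjusted p = 0.000237) and Lcn2 (0.87, adjusted p = 0.00441), with sums of 469 to 608 at 30 h and 280 to 336 at 0 h. Of 11 mast cell and basophil markers 1 was higher, Cma1 (1.68), and 2 were lower, Mcpt1 (-1.32) and Cpa3 (-0.70), with sums of 225 to 254 at 30 h and 207 to 263 at 0 h. The call was shared by 1 of 3 probe sets of Cma1, 1 of 2 of Mcpt1 and 1 of 2 of Lcn2, the brightest of each. A second probe set of Tpsb2 was called, though the brightest was not. Of 6 megakaryocyte markers and 9 markers of antigen presenting cells and lymphocytes, limma called 0 at 30 h by the brightest probe sets. By these, 0 had an unadjusted p below 0.05. A second probe set of the megakaryocyte marker Gp5 was called at 30 h. At earlier times the megakaryocyte marker Gp9, a platelet glycoprotein gene, was called higher, at a mean of 118 at 14 h against 30.8 at 0 h (1.46, adjusted p = 0.000571) and of 99.3 at 21 h (1.34, adjusted p = 0.000665), and it averaged 25.1 at 30 h. Camp, Cma1, Mcpt1 and Cpa3 were already called at 21 h, and Mcpt1 at 14 h, where 24.6% and 16.2% of all genes were called. Cd68 stands in both the macrophage and the membrane protein list, and Ctsg in both the neutrophil and the cathepsin list. The part of the neutrophil, mast cell, megakaryocyte and erythroid markers in the results above was not tested.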

How the data were processed

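RNA of 18 samples was hybridized to MG-U74Av2 arrays. The deposited values, per the labels, are linear signal intensities, 1 a probe set on each array. How the authors summarised, scaled and called detection is not given in the sources used here. In the deposited values, trimmed means of the arrays lay between 150.094 and 150.124, so the arrays share a common scale, and array medians ran from 38.4 to 51. Depth does not apply to arrays, and 3 arrays a time limit the precision. An exact permutation test of 3 against 3 cannot go below p = 0.1, so the tests rest on variance shared across probe sets.

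Of 12488 probe sets, 66 controls were left out. Symbols came from the platform table: 10833 probe sets carried 1, 396 several and 1193 none. By gene number 10817 were found in the RefSeq table for GRCm38.p6, and 0 symbols changed. The brightest probe set, by mean log2 signal, stood for a gene. A constant of 16 was added, the log2 taken, the arrays quantile normalized, and limma 3.58.1 in R 4.3.3 fitted with 1 mean a time over all 18 arrays and an intensity trend. Adjusted p values are Benjamini-Hochberg values of limma over all 12422 probe sets within a comparison. The fit was tested on simulated data. All 10 genes were named, with the 3 largest rises and falls of each further list, all inhibitors and regulators measured, and the 3 genes most correlated with each gene called in the F test. Other genes (Atp6v0a2, Ap1m1 and the markers) were named after their values were seen. The genes and lists were chosen with earlier results of these data known. Alternatives were other normalizations, constants, filters, variance models, probe set rules, array weights, a replicate block and each array left out.

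The labels call the replicates biological but do not say whether cultures were separate, so p values measure the spread between these samples.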

Additional observations from a re-analysis of the deposited data

How the results depend on the processing

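Under 28 other settings, counts of calls against 0 h from 14 h on stayed within 1.5 times their value and those of neighbouring steps moved more, while sizes varied. At 30 h against 0 h Ctsb ran from 1.57 to 3.80 and Ctse from -2.77 to -0.76, both nearest 0 with the mean of all probe sets. Of 2493 values of single genes, 2430 kept their side of the threshold, 61 lost the call, 1 gained it and 1 reversed. Of the 2430, 45 changed sign, and 0 of these were called under either setting. At 30 h against 0 h the 7 calls held in every setting that fitted the gene. Ctsl could not be fitted with the dimmest 33.3% of probe sets left out, and its log2 change ran from 0.46 (constant of 64) to 2.52 (constant of 1). With the mean of all probe sets of a gene, Ctse at 7 h reversed to 0.036 and was not called at 14 h (-0.14, adjusted p = 0.732) or 21 h (-0.07, adjusted p = 0.851), and 0 genes were called at 7 h against 0 h. That setting called 0 genes at 7 h against 3 h, 1 at 14 h against 7 h and 1 at 21 h against 14 h. For Ctse its mean takes in 93860_i_at and 93861_f_at, whose gene is uncertain. In the other 27 of the 28 settings the Ctse calls at 7, 14 and 21 h against 0 h held. A common median called 0 at 7 h against 3 h, 1 at 14 h against 7 h and 2 at 30 h against 21 h. The compared times alone called 0 at 7 h against 3 h, 1 at 14 h against 7 h, 0 at 21 h against 14 h and 0 at 30 h against 21 h, with fewer arrays in the fit. At 7 h against 3 h, 1 gene was called without quantile normalization, with a constant of 1 and without the intensity trend, which called 3 at 30 h against 21 h. Without 1 array, 1 to 2 genes were called at 7 h against 3 h, at 14 h against 7 h and at 21 h against 14 h, and 2 to 5 at 30 h against 21 h. For these the cause was not tested. Lamp1 at 21 h against 14 h was called without quantile normalization (0.47, adjusted p = 0.0337). The other lysosomal genes called ran from 44 to 49. With the replicate block, against 0 h, 7 genes were called at 30 h, 6 at 21 h, 5 at 14 h, 2 at 7 h, and 47 other lysosomal genes, and no call of the 10 genes changed. Deviations of same-letter arrays correlated weakly (36 of 45 pairs above 0 and 3 over 0.1, range -0.092 to 0.205), and 16 of 18 arrays correlated best with their own letter, a hint from the data and not from the design.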
